A study of Mus musculus with 6 samples.

Results

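The genes that encode the subunits of glutamate and GABA receptors were compared between the telencephalon of newborn mice with a conditional deletion of Tsc1 and that of their littermates. Members were taken by symbol and comprised the AMPA (Gria1 to Gria4), kainate (Grik1 to Grik5), NMDA (Grin1 to Grin3b), delta (Grid) and metabotropic (Grm) glutamate receptors, the alpha, beta, gamma and delta subunits of the GABA-A receptor (Gabra, Gabrb, Gabrg and Gabrd) and the GABA-B receptor (Gabbr1 and Gabbr2). The symbols matched 41 of the 22651 genes in the tables. mRNA-sequencing was done on 3 WT mice of genotype TSC1 flox/flox;Emx1 +/+ and 3 TSC1 mice of genotype TSC1 flox/flox;Emx1-cre/+, all at postnatal day 0. Both groups thus carried the floxed Tsc1 gene on each chromosome, and the Emx1-cre allele, which drives recombination in the embryonic dorsal cortex, was carried by the TSC1 mice alone. The presence of Cre and the deletion cannot be told apart in this design. The tissue was the whole telencephalon, which also holds the striatum and other regions outside the dorsal cortex, and in such bulk tissue fewer cells of a type and less RNA per cell cannot be told apart.

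Glutamate is the main excitatory transmitter of the forebrain and GABA the main inhibitory one. AMPA, kainate and NMDA receptors are ion channels built from subunits, and the choice of subunit sets their kinetics, calcium permeability and trafficking. Metabotropic glutamate receptors and GABA-B receptors act through G proteins, whereas GABA-A receptors are chloride channels, usually assembled from alpha, beta and gamma subunits. In the newborn forebrain many of these genes are in the course of a developmental exchange of subunits, in which Grin2b precedes Grin2a. Tsc1 encodes a subunit of the complex that restrains mTOR signaling.

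Between 14119365 and 17772865 expected counts were assigned to genes per mouse, so that 3 counts, the smallest number read as detection, corresponded to 0.169 to 0.212 CPM. In all sentences below, values of a group are given in the order of its replicates 1, 2 and 3. TPM, a level per transcript length, was 50.2, 32.0 and 28.4 for Tsc1 in WT and 27.1, 21.7 and 22.4 in TSC1, and the edgeR log2 fold change was -0.66 ± 0.18 (SE; adjusted p = 0.09998). All 3 TSC1 values lay below the WT values, and the level covers the whole gene, not the floxed part alone. On the first principal component of all tested genes (47.7% of the variance), TSC1 replicate 3 scored -3.95, between the WT mice (-26.3 to -7.43) and TSC1 replicates 1 and 2 (26.5 and 30.3) and nearer to the former. Summed TPM of striatal projection neuron markers was 348 to 474 in WT and 118, 130.1 and 272 in TSC1, with 10 of 11 markers lower in every TSC1 mouse and 0 called. That of interneuron and subpallial markers was 1219 to 1403 in WT and 663 to 994 in TSC1, with 11 of 11 lower in every TSC1 mouse and 5 called. Choroid plexus markers summed to 1169 to 2458 in WT and to 32.1, 109.1 and 863 in TSC1, with 6 of 6 lower in every TSC1 mouse. The ranges of cortical projection neuron markers overlapped (1674 to 1899 in WT, 1774 to 2228 in TSC1). Summed TPM of telencephalon regional genes was 580.1 to 685 in WT and 635 to 649.9 in TSC1, and that of 9 genes of other brain regions was 5.06 to 9.28 in WT and 4.90 to 7.32 in TSC1, with Lhx9 at 1.85 to 7.06. Of these 9, Hoxa2, Hoxb3, Hoxc4 and En1 were below 3 counts in every mouse, and the others reached 3 counts in at least 1 mouse. The part of these marker differences in the receptor results below was not tested.

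The receptor subunits took 0.430% to 0.456% of all counts in each mouse. Their summed TPM was 2562, 2442 and 2455 in WT and 2640, 2499.5 and 2615 in TSC1, so the ranges overlapped. Of the 41 genes, 38 passed edgeR's filter on low counts, and the tests below are over these and all other genes together. Grm6, the receptor of retinal bipolar cells, had a count of 1 in WT replicate 1 and 0 elsewhere. Gabra6, known from cerebellar granule cells, had a count of 1 in TSC1 replicate 3 and 0 elsewhere. Grin3b held 2 to 7 counts per mouse and overlapped between the groups. Every count of the 41 genes was a whole number, so RSEM had divided no reads of these genes with another gene.

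None of the 38 tested subunits was called at an adjusted p below 0.05 in edgeR (0 of 38, against 1.52% of all 13969 tested genes). At an unadjusted p below 0.05 there were 10 of 38 (26.3%), 5 higher and 5 lower in TSC1, against 18.0% of all genes (9.04% higher and 8.93% lower). DESeq2 called 1, Grin2d (4.86% of all genes), and limma called 0 on log2(TPM + 1) and 0 on log2(TPM + 0.1) (1.98% and 1.81% of all genes). The TPM of the groups did not overlap for 11 subunits (28.9%), against 22.7% of all genes. Gria2, Gabra2, Gabbr1 and Gabbr2 were higher in every TSC1 mouse (12.3% of all genes were), and Gria4, Grik2, Grin2d, Grin3a, Grm5, Grm4 and Gabrd were lower (10.3% of all genes). This list depended on the unit. In TMM-scaled CPM 10 subunits did not overlap, 4 higher and 6 lower, against 22.7% of all genes. In CPM 1 GABA-B gene was higher (2 in TPM), as was 1 GABA-A beta gene (0 in TPM). For group I metabotropic receptors 0 genes were lower in CPM (1 in TPM). The median log2 fold change was -0.0049 over the 38 subunits and -0.0027 over all genes, and the median of its absolute size was 0.17 and 0.13. Fitted changes ran from -0.80 for Grm4 to 0.56 for Grin2a. For 29 of the 38 subunits (76.3%) the 95% interval of the change lay wholly within 1.5-fold in either direction, as it did for 69.3% of all genes.

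**Figure D1:**
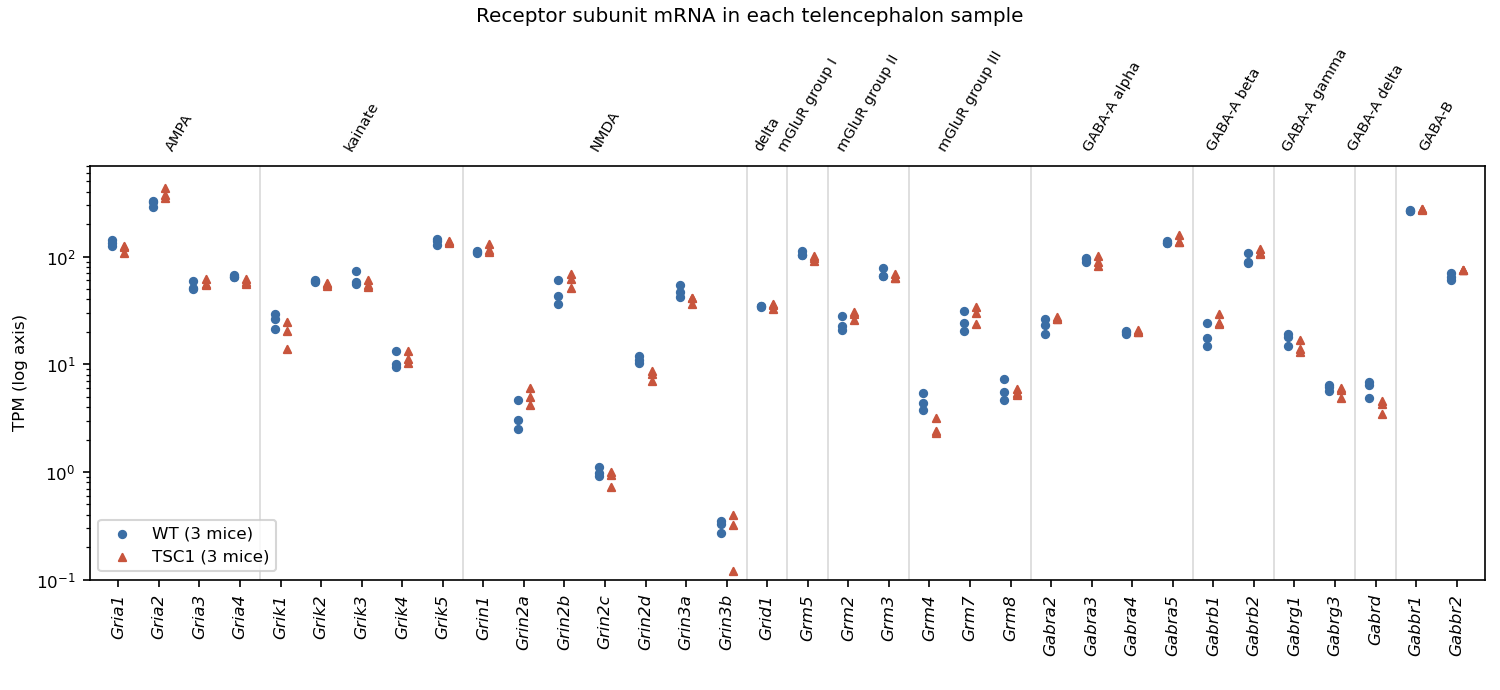
TPM (log axis) of 34 receptor subunits in each of 3 WT mice (circles) and 3 TSC1 mice (triangles), by receptor class. Levels run from below 1 TPM for Grin3b to above 290 TPM for Gria2. Most WT and TSC1 points lie side by side, and Grin2d, Grm4 and Gabrd have the 3 triangles below the 3 circles. Grm6 and Gabra6, with a total of 1 count each, are not plotted, and not every subunit is shown.

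AMPA receptors carry most fast excitatory transmission, and Gria2, whose edited subunit makes the channel impermeable to calcium, was the most abundant receptor gene of all 41. Its TPM was 291, 326 and 320.5 in WT and 429.6, 347 and 374 in TSC1. The lowest TSC1 mouse was above the highest WT mouse, while TSC1 replicate 1 was far above the other two. The log2 fold change was 0.26 ± 0.09 (SE, n = 3 each), with an edgeR adjusted p of 0.176. Gria1, which contributes to calcium-permeable receptors, had a TPM of 141, 125 and 135 in WT and 122, 109 and 125 in TSC1. Only the highest TSC1 mouse reached the lowest WT mouse, and the log2 fold change was -0.19 ± 0.07 (edgeR adjusted p = 0.210). Gria4, a subunit with fast kinetics, stood at 64.8, 65.2 and 67.8 in WT and 57.8, 55.3 and 62.5 in TSC1. These groups did not overlap, with a log2 fold change of -0.13 ± 0.08 (edgeR adjusted p = 0.406). It was -0.20 (edgeR adjusted p = 0.222) with effective lengths as offsets and -0.08 without WT replicate 3, and over the 15 alternatives the adjusted p ran from 0.222 to 0.783. Gria3 overlapped (50.3 to 58.9 in WT, 54.3 to 61.7 in TSC1). Gria4 and Gria3 overlapped in level over the 6 mice, whereas Gria2 exceeded Gria1 and Gria1 exceeded Gria4 in every mouse.

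As shares of summed AMPA subunit TPM, the groups separated for 3 of 4 subunits. Gria2 made up 52.3%, 57.4% and 55.9% in WT and 64.0%, 61.3% and 60.7% in TSC1, with means of 55.2% ± 2.62 and 62.0% ± 1.77 (SD, n = 3 each). The share of Gria1 was 25.4%, 22.1% and 23.5% in WT and 18.2%, 19.2% and 20.3% in TSC1. That of Gria4 was 11.7%, 11.5% and 11.8% in WT and 8.62%, 9.76% and 10.1% in TSC1. Each mouse of the TSC1 group thus had a larger Gria2 share and smaller Gria1 and Gria4 shares than any WT mouse, including TSC1 replicate 3. With 3 mice against 3, an exact permutation test cannot go below 0.1 (two-sided), so no p is given for a share. The shares of a receptor sum to the whole, so these 3 differences are not independent of each other. Shares within other classes separated too, for Grin2c, Grin2d, Grin3a, Gabra3 and Gabrg3, while every kainate and GABA-A beta share overlapped. For scale, the TPM of 22.7% of all tested genes did not overlap, which is a measure of level and not of share. Summed AMPA TPM was 565 ± 8.81 in WT and 618 ± 52.4 in TSC1, and overlapped.

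Gria2 and Gria4 had the AMPA subunit groups that did not overlap in TPM, in opposite directions. The sequences upstream of their starts are given for that reason. TPM divides by transcript length, and the mean length of Gria4 was 4121 bases in WT and 4326 in TSC1 (below). The choice of these 2 genes therefore rests on TPM alone. They are the 250 bases before the RefSeq start (GRCm38.p6), on the strand of the gene, 5′ to 3′, with capitals marking CG dinucleotides. The Gria2 window is chr3:80802836-80803085 on the minus strand, next to a gene that spans chr3:80681450-80802835. The Gria4 window is chr9:4796235-4796484 on the minus strand, next to a gene that spans chr9:4417896-4796234.
Gria2: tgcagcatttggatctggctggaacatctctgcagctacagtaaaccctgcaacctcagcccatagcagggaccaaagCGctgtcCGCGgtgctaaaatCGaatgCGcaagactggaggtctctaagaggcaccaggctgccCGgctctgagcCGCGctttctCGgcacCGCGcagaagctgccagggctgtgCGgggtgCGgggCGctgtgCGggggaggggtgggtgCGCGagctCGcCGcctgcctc
Gria4: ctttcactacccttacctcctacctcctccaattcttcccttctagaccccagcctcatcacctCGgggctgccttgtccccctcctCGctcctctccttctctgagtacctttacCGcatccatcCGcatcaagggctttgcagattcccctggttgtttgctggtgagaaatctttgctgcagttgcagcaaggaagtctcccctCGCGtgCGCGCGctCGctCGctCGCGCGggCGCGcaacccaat
The windows hold 19 and 16 CG dinucleotides, more than 80.3% and 74.6% of all windows in the table. RefSeq windows were matched for 26 of the 41 genes (33 windows), with a median of 9 CG dinucleotides against 6 over all windows. The letters GGGCGG of the GC box were in 45.5% of the receptor windows and in 32.7% of all windows, on either strand. TATAAA was in 12.1% and 12.4%, and GGACAGC, a stretch of the RE1 element bound by the neuronal repressor REST, in 6.06% (Gria2 and Grm2) and 5.28%. The cAMP response element TGACGTCA was in 0% and 1.55%. These are matches of letters and no measure of binding.

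**Figure D2:**
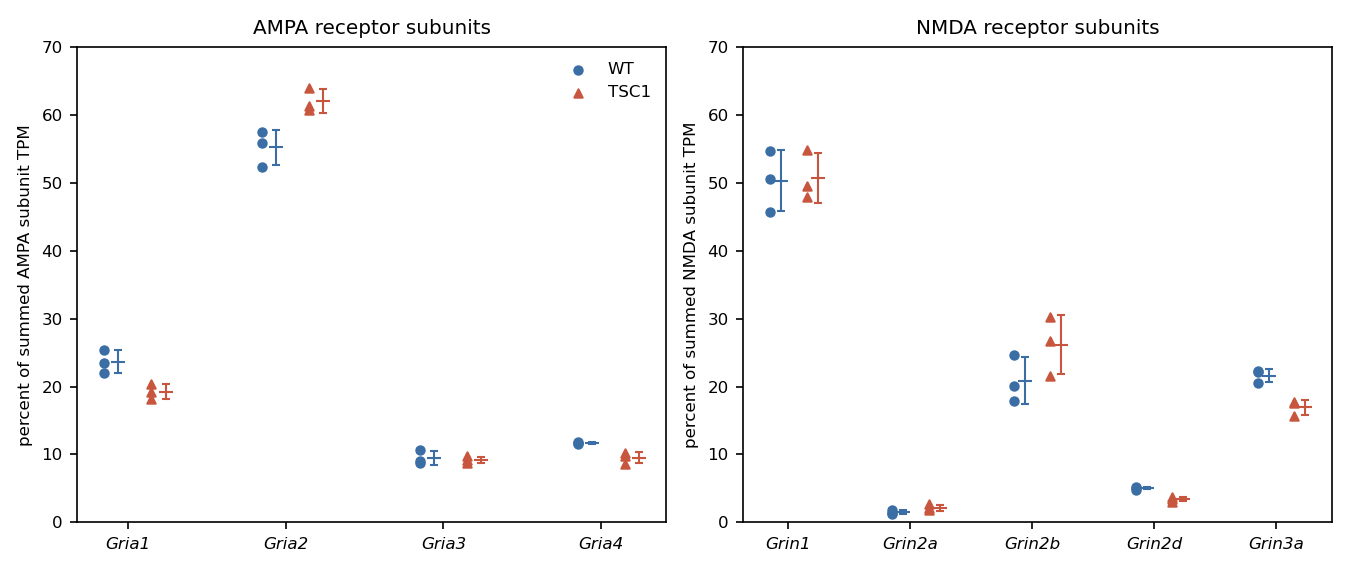
Percent of summed AMPA subunit TPM (left) and of summed NMDA subunit TPM (right) in each mouse, with circles for WT and triangles for TSC1, and bars for the mean ± SD of 3 mice. Gria2 lies higher and Gria1, Gria4, Grin2d and Grin3a lie lower in all 3 TSC1 mice. Grin2c and Grin3b, each under 1% of the NMDA sum, are not plotted.

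NMDA receptors need the obligatory subunit Grin1, and the GluN2 and GluN3 subunits beside it set their gating, magnesium block and calcium entry. Grin1 was the most abundant, at 113, 107 and 111 TPM in WT and 115, 109 and 129.6 in TSC1. The groups overlapped, with a log2 fold change of 0.07 ± 0.08 that turned to -0.01 without TSC1 replicate 3. Grin2d, a GluN2 subunit of early development and of interneurons that gives slow currents with little magnesium block, was at 11.9, 10.99 and 10.4 TPM in WT and at 8.14, 7.03 and 8.71 TPM in TSC1 (156 to 314 counts). Every TSC1 mouse lay below every WT mouse. The log2 fold change was -0.50 ± 0.12, with a 95% interval of -0.77 to -0.24 and an edgeR adjusted p of 0.0710, the lowest of the 38 subunits. DESeq2 gave an adjusted p of 0.0357 for Grin2d, and without TSC1 replicate 3 edgeR gave -0.58 and an adjusted p of 0.0308, when 5.68% of all genes were called. Over all 15 alternatives its change ran from -0.58 to -0.43 and its adjusted p from 0.0308 to 0.267. Grin2d is also a gene of interneurons, whose markers had a lower sum in TSC1 (above), and the part of these cells in the difference was not tested.

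Grin3a, whose subunit lowers calcium entry in immature synapses, had 54.8, 46.8 and 41.7 TPM in WT and 40.9, 35.9 and 41.5 TPM in TSC1. TSC1 replicate 3 lay just below the lowest WT mouse, so the groups barely failed to overlap, and the log2 fold change was -0.30 ± 0.09 (edgeR adjusted p = 0.142). Grin2b, the GluN2 subunit that dominates at birth, was at 60.9, 42.7 and 36.2 TPM in WT and at 61.7, 69.1 and 51.0 TPM in TSC1. WT replicate 1 lay within the TSC1 range, and the log2 fold change was 0.36 ± 0.16 (edgeR adjusted p = 0.289). Without WT replicate 1 it was 0.57 with an edgeR adjusted p of 0.0473, when 3.18% of all genes were called. Without WT replicate 3 it was 0.23, and over the 15 alternatives the adjusted p ran from 0.0473 to 0.636. Grin2a, the subunit of mature receptors, was at 4.63, 3.02 and 2.48 TPM in WT and at 4.95, 6.04 and 4.21 TPM in TSC1 (59 to 138 counts). Here too WT replicate 1 lay among the TSC1 mice, and the log2 fold change was 0.56 ± 0.23 (edgeR adjusted p = 0.239). Grin2c was near 1 TPM in both groups, on 19 to 31 counts, and overlapped.

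The ratio of Grin2b to Grin2a TPM, which falls as the forebrain matures, was 13.1, 14.1 and 14.6 in WT and 12.5, 11.4 and 12.1 in TSC1. The ratios did not overlap, although Grin2b and Grin2a each did, with means of 13.96 ± 0.75 and 12.01 ± 0.52 (SD, n = 3 each). As shares of NMDA subunit TPM, Grin2d made up 4.84%, 5.19% and 5.10% in WT and 3.52%, 3.08% and 3.68% in TSC1, without overlap. Grin3a made up 22.3%, 22.1% and 20.5% in WT and 17.7%, 15.7% and 17.6% in TSC1, also without overlap. The share of Grin2b overlapped, at 24.7%, 20.2% and 17.8% in WT and 26.7%, 30.3% and 21.6% in TSC1. Summed NMDA TPM was 220.4 ± 22.8 in WT and 232 ± 4.01 in TSC1, and overlapped.

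Kainate receptors act at both sides of the synapse. Grik5, a high-affinity subunit that needs a partner of the Grik1 to Grik3 group, was the most abundant, at 127, 145 and 140.1 TPM in WT and 134, 137 and 140.5 TPM in TSC1. It overlapped, with a log2 fold change of -0.03 ± 0.08, which was 0.01 without WT replicate 2. Grik2 stood at 58.0 to 60.1 in WT and 52.9 to 56.3 in TSC1 and did not overlap, with a log2 fold change of -0.14 ± 0.07 (edgeR adjusted p = 0.312). Grik1 had 21.3, 26.3 and 29.1 TPM in WT and 20.4, 13.8 and 24.7 TPM in TSC1. Its groups overlapped, and its log2 fold change of -0.41 ± 0.21 (edgeR adjusted p = 0.339) ran from -0.62 without TSC1 replicate 3 to -0.21 without TSC1 replicate 2 (edgeR adjusted p = 0.0849 and 0.697). Grik3 (51.7 to 72.7 TPM over all mice) and Grik4 (9.34 to 13.18 TPM) overlapped. Summed kainate TPM was 294, 298 and 294 in WT and 275, 278 and 283 in TSC1, so every TSC1 mouse lay below every WT mouse, by means of 295 ± 2.57 and 279 ± 4.34 (SD). In FPKM the sums were also lower in every TSC1 mouse. Among the other classes with more than 1 gene, summed TPM separated too for group I metabotropic (lower), GABA-A beta (higher) and GABA-B (higher) receptors. In FPKM the group I sums stayed lower, and the GABA-A beta and GABA-B sums overlapped. A share over all genes is not available for a class sum.

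The delta receptors bind cerebellins and organise synapses more than they carry current. Grid1 was at 34.1 to 34.8 TPM in WT and at 32.6 to 36.4 TPM in TSC1, which overlapped. Its log2 fold change was -0.01 ± 0.09 in edgeR and 0.01 in limma on log2(TPM + 1).

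The metabotropic glutamate receptors fall into group I, which couples to phospholipase C, and groups II and III, which inhibit adenylyl cyclase. Grm5 of group I was the most abundant of them, at 104, 103 and 113 TPM in WT and at 96.8, 91.7 and 101.9 TPM in TSC1. All TSC1 values were below the WT values, with a log2 fold change of -0.17 ± 0.08 (edgeR adjusted p = 0.287). In group II, Grm3, which is also a gene of astrocytes, had 78.1, 66.1 and 66.1 TPM in WT and 63.5, 68.4 and 63.6 TPM in TSC1. It overlapped, with a log2 fold change of -0.13 ± 0.08. Grm2 overlapped as well (21.0 to 27.8 in WT, 25.7 to 30.8 in TSC1). Its log2 fold change was 0.24 ± 0.11 (edgeR adjusted p = 0.298), and the group II sum was 93.9 and 93.8 TPM in the group means.

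Grm4 of group III, a presynaptic receptor that limits transmitter release, had the largest fitted change of the 38 subunits. It was at 4.36, 3.73 and 5.39 TPM in WT and at 2.29, 2.40 and 3.16 TPM in TSC1, from 72 to 84 counts in WT and 36 to 54 counts in TSC1. The groups did not overlap, and TSC1 replicate 3 was the TSC1 mouse nearest to WT. The log2 fold change was -0.80 ± 0.22, with a 95% interval of -1.30 to -0.29 and an edgeR adjusted p of 0.1095. Without TSC1 replicate 3 it was -0.97 with an adjusted p of 0.0506, and over the 15 alternatives the adjusted p ran from 0.0506 to 0.330. Grm7, also presynaptic and the most abundant of group III, stood at 31.3, 24.3 and 20.2 TPM in WT and at 33.9, 30.2 and 23.6 TPM in TSC1. It overlapped (log2 fold change 0.18 ± 0.16), as did Grm8 (4.64 to 7.31 in WT, 5.18 to 5.84 in TSC1).

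**Figure D3:**
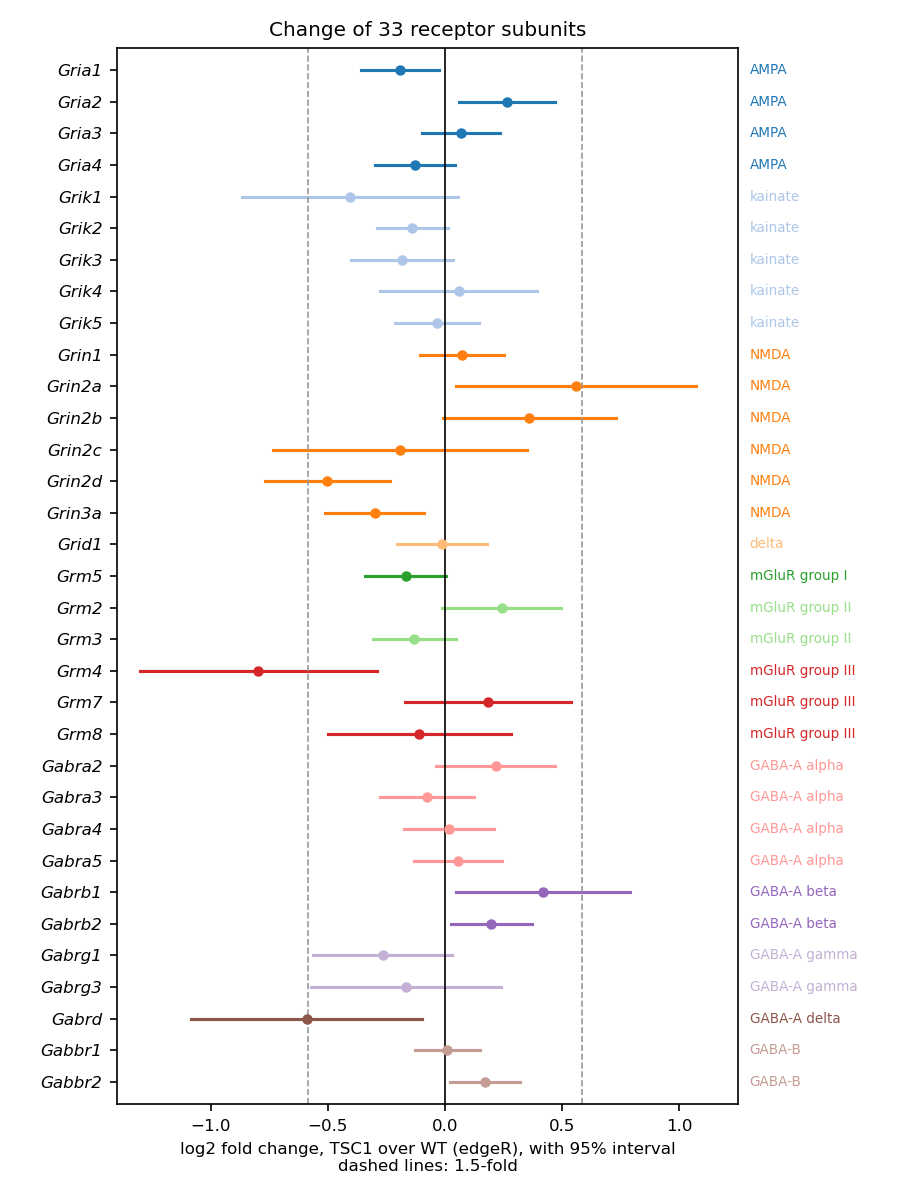
Log2 fold change, TSC1 over WT, of 33 tested receptor subunits from edgeR (points) with 95% intervals (lines), coloured by class. Dashed lines mark 1.5-fold in either direction. The points run from -0.80 for Grm4 to 0.56 for Grin2a, and 25 of the 33 intervals stay between the dashed lines. The intervals of 10 subunits do not cross 0, although no subunit passed the adjusted p.

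GABA-A receptor alpha subunits set the sensitivity and location of the channel. Gabra5, an extrasynaptic subunit of immature and hippocampal neurons, led the class, at 134, 139 and 134 TPM in WT and 137, 136 and 159 TPM in TSC1. It overlapped, with a log2 fold change of 0.06 ± 0.08, or -0.03 without TSC1 replicate 3. Gabra3 followed (89.95 to 96.7 in WT, 82.1 to 100.6 in TSC1) and overlapped too. Gabra2, the alpha subunit of immature synapses, had 26.1, 23.0 and 19.1 TPM in WT and 27.7, 26.6 and 26.5 TPM in TSC1. It did not overlap, with a log2 fold change of 0.22 ± 0.11 (edgeR adjusted p = 0.353). Gabra4, at 19.0 to 20.8 TPM in all mice, differed little (0.02 ± 0.09, and -0.01 with upper-quartile scaling). The levels of Gabra2 and Gabra4 overlapped over the 6 mice, while the lowest value of Gabra5 was above the highest of Gabra3.

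The beta subunits are needed for assembly and GABA binding. Gabrb2 had 108, 87.5 and 88.5 TPM in WT and 117, 109 and 105 TPM in TSC1. Here WT replicate 1 lay within the TSC1 range, and the log2 fold change was 0.20 ± 0.08 (edgeR adjusted p = 0.219). Gabrb1 had 24.1, 17.6 and 14.8 TPM in WT and 29.4, 23.5 and 24.1 TPM in TSC1, with WT replicate 1 again within the TSC1 range and a log2 fold change of 0.42 ± 0.17 (edgeR adjusted p = 0.224). Without WT replicate 1 the changes of Gabrb2 and Gabrb1 were 0.28 and 0.61, with edgeR adjusted p-values of 0.0526 and 0.0585. Gabrb2 was at 0.15 without WT replicate 2 and Gabrb1 at 0.29 without WT replicate 3, with edgeR adjusted p-values of 0.569 and 0.530.

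Of the gamma subunits, which place the receptor at synapses, Gabrg1 (14.9 to 19.2 in WT, 13.02 to 16.8 in TSC1) and Gabrg3 (5.69 to 6.47 in WT, 4.83 to 6.02 in TSC1, on 40 to 61 counts) overlapped, with log2 fold changes of -0.27 ± 0.13 and -0.17 ± 0.18. Gabrd, whose subunit replaces gamma in extrasynaptic receptors that carry tonic inhibition, had 4.90, 6.38 and 6.88 TPM in WT and 4.27, 3.42 and 4.59 TPM in TSC1 (32 to 77 counts). The groups did not overlap, and the log2 fold change was -0.59 ± 0.22, with a 95% interval of -1.08 to -0.10 and an edgeR adjusted p of 0.197.

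The GABA-B receptor is an obligate dimer of the Gabbr1 product, which binds GABA, and the Gabbr2 product, which couples to the G protein. Gabbr1, the second most abundant receptor gene of the 41 after Gria2, had 265, 271 and 267 TPM in WT and 272, 275 and 276 TPM in TSC1. These TPM values did not overlap, yet the log2 fold change of its counts was 0.01 ± 0.06 with TMM scaling and -0.02 with upper-quartile scaling. Gabbr2 had 70.9, 65.0 and 61.0 TPM in WT and 75.3, 74.5 and 75.6 TPM in TSC1. It did not overlap, and the log2 fold change was 0.17 ± 0.07 (edgeR adjusted p = 0.220). Gabbr2 varied less among the TSC1 mice (SD 0.58 TPM) than among the WT mice (SD 4.98 TPM). Their summed TPM was 333 ± 4.35 in WT and 349.7 ± 2.002 in TSC1 without overlap, and the sums in FPKM overlapped.

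Over receptor families, 6 of 17 tested ionotropic glutamate, 3 of 7 metabotropic glutamate and 10 of 14 GABA receptor genes had a fitted change above 0. Of all 13969 tested genes, 6890 did. Members near 0, such as Gabra4 and Gabbr1 with upper-quartile scaling and Grid1 in limma, turned. The median log2 fold change was -0.13 for the ionotropic glutamate, -0.11 for the metabotropic glutamate and 0.03 for the GABA receptor genes, beside -0.0027 for all tested genes. At an unadjusted p below 0.05 in edgeR there were 5 of 17 (29.4%), 1 of 7 (14.3%) and 4 of 14 (28.6%), against 18.0% of all tested genes. The difference between the families was not tested.

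The GABA-A genes lie mostly in clusters. On chromosome 5 Gabrg1, Gabra2 and Gabra4 are read from the minus strand and Gabrb1 from the plus strand, and Gabra4 (chr5:71569749-71658308) and Gabrb1 (chr5:71658113-72149037) overlap head to head by 196 bases in the GENCODE annotation of GRCm38. Their log2 fold changes were -0.27, 0.22, 0.02 and 0.42 in that order, so neighbours of the cluster did not share a direction. On chromosome 7 the neighbours Gabrg3 and Gabra5 had -0.17 and 0.06. Without strand in the library, reads from the overlap of Gabra4 and Gabrb1 cannot be told apart by strand. The counts of both genes were whole numbers, so RSEM had divided no reads between them (above).

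The mean transcript length that RSEM gave Gria4, weighted by the abundance of its transcripts, was 4099, 4075 and 4187 bases in WT and 4427, 4357 and 4194 bases in TSC1. The groups did not overlap, and TSC1 replicate 3 was the nearest to the WT mice. The spread over the 6 mice was 8.32% of the mean. Grik1 did not overlap in length either, but over a range of 0.56%. Among all genes whose length varied by more than 1 base, 11.0% of 2914 did not overlap. The reads behind each Gria4 transcript were not analysed here.

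The genes that make, move and hold the transmitters and receptors were read from lists of 78 genes, of which 71 were tested and 6 called, 1 higher (0.859% of all genes) and 5 lower (0.659% of all genes). In GABA synthesis and transport, 3 of 8 genes fell and 0 rose, with a median log2 fold change of -0.56. Gad1, which makes GABA, had 109, 92.7 and 112 TPM in WT and 56.4, 46.3 and 76.1 TPM in TSC1. Gad2, the enzyme of nerve terminals, had 48.9, 49.9 and 59.3 TPM in WT and 24.6, 20.1 and 33.9 TPM in TSC1. Slc32a1, the vesicular GABA transporter, had 47.0, 42.1 and 47.2 TPM in WT and 16.6, 14.04 and 29.7 TPM in TSC1. For all of these every TSC1 mouse was below every WT mouse, and TSC1 replicate 3 was the nearest to WT. The log2 fold changes were -0.83 ± 0.17 for Gad1, -1.03 ± 0.18 for Gad2 and -1.19 ± 0.24 for Slc32a1, with edgeR adjusted p-values of 0.0479, 0.0318 and 0.0479. These genes are themselves interneuron and subpallial markers, whose sum was lower in TSC1.

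Among 11 genes of glutamate synthesis and transport, 1 rose and 0 fell. Glul, the glutamine synthetase of astrocytes, had 271, 248 and 234 TPM in WT and 335, 302 and 339 TPM in TSC1, without overlap, and a log2 fold change of 0.35 ± 0.07 (edgeR adjusted p = 0.0479). Summed TPM of astrocyte markers overlapped (609 to 783 in WT, 686 to 793 in TSC1), with 2 of 8 called higher and 0 lower. The list was mixed, with 4 fitted changes above 0 and 4 below, among the latter Gja1 (-0.69) and Slc1a3 (-0.31). Of 4 tested GABA-A and glycine receptor subunits outside the symbols above, 1 fell. Glra2, the glycine receptor alpha subunit of the embryonic brain, had 103, 98.4 and 100.01 TPM in WT and 73.2, 72.7 and 83.0 TPM in TSC1. The groups did not overlap, with a fitted log2 fold change of -0.42 ± 0.08 (edgeR adjusted p = 0.0433). Glrb, the beta subunit that anchors glycine receptors, was higher in every TSC1 mouse, with a log2 fold change of 0.34 ± 0.10 that did not pass (edgeR adjusted p = 0.131). Of 9 partners of delta and metabotropic receptors, 1 fell. Cbln2, a secreted ligand of the delta receptors, had 36.4, 33.9 and 39.6 TPM in WT and 24.8, 20.7 and 25.2 TPM in TSC1, without overlap, and a log2 fold change of -0.66 ± 0.12 (edgeR adjusted p = 0.0341). Its receptor gene Grid1 overlapped, as given above. Without WT replicate 2 or 3, or without TSC1 replicate 1 or 2, none of these 6 genes passed.

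Of the AMPA and kainate auxiliary subunits, 0 of 15 were called, with 4 at an unadjusted p below 0.05 in edgeR (26.7%, against 18.0% of all genes). In TPM 4 of them were lower in every TSC1 mouse (10.3% of all genes were) and 1 was higher (12.3% of all genes). Among the lower ones were Gsg1l (-0.43, edgeR adjusted p = 0.0604) and Neto1 (-0.38, edgeR adjusted p = 0.0925). GABA receptor partners and NMDA receptor scaffolds each had 0 of 11 called. Each had 3 of 11 at an unadjusted p below 0.05 in edgeR (27.3%, against 18.0% of all genes). Their median log2 fold changes were -0.05 and 0.12. The scaffold Dlg4 (PSD-95) was at 247 ± 7.91 TPM in WT and 258 ± 13.02 TPM in TSC1, and gephyrin (Gphn), which holds GABA-A receptors at synapses, at 69.7 ± 2.90 and 70.2 ± 5.32. The chloride transporters, which set the direction of the GABA current, were not called (0 of 2, and 0 at an unadjusted p below 0.05). Slc12a2, which brings chloride in, was at 41.1 ± 0.70 TPM in WT and 43.7 ± 2.88 TPM in TSC1, and Slc12a5, which extrudes it, at 49.8 ± 6.44 and 40.5 ± 9.37. Their ratio was 0.72, 0.89 and 0.89 in WT and 1.23, 1.24 and 0.87 in TSC1, and overlapped through TSC1 replicate 3. DESeq2 called 12 of the list genes in all, and 4.86% of all genes.

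**Figure D4:**
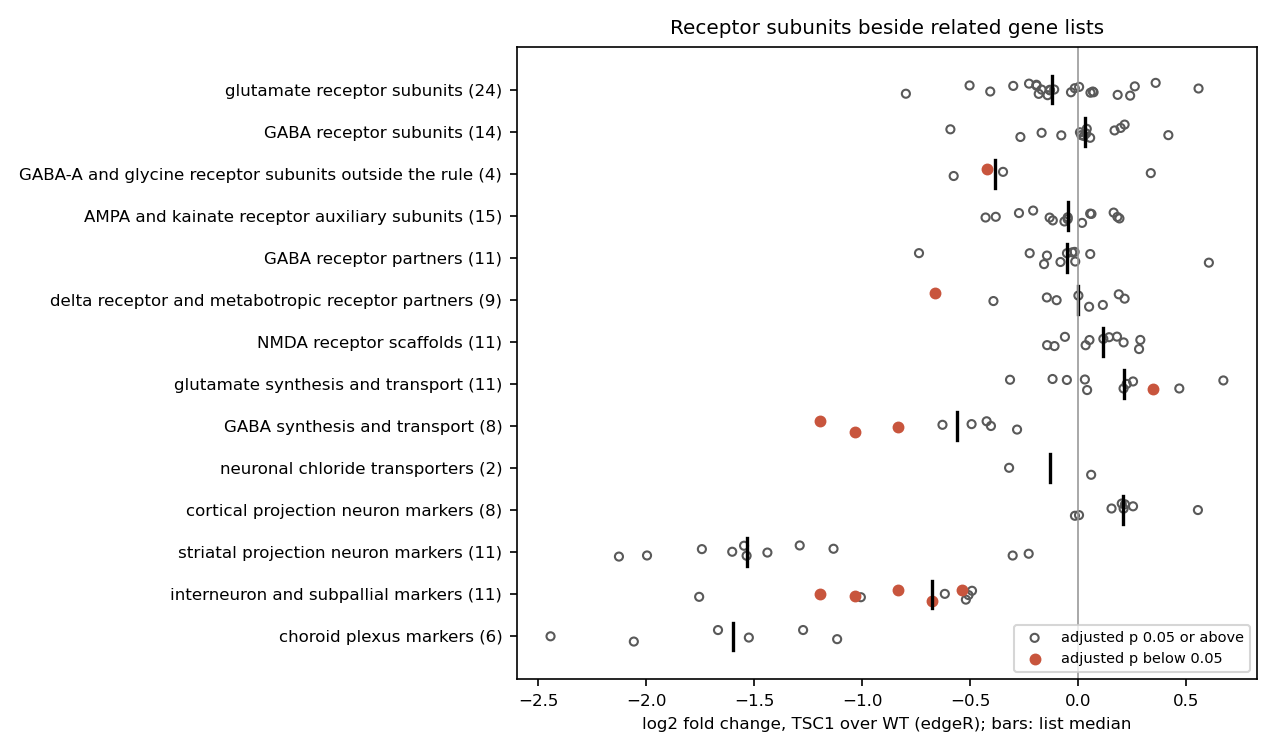
Log2 fold change, TSC1 over WT (edgeR), of each tested gene in the receptor families and the related lists, with the number of tested genes in brackets. Filled points passed an adjusted p of 0.05, open points did not, and bars mark the median. The receptor subunits are centred near 0 with no filled point, and 3 filled points lie at or below -0.83 among GABA synthesis and transport genes, which are also interneuron markers. Among the lists plotted, the striatal and choroid plexus markers have the lowest medians. Other marker lists are not plotted.

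The differences of the subunits without either of the 2 mice nearest to the other group on the first principal component were as follows. Without TSC1 replicate 3, 16 subunits had an unadjusted p below 0.05, when 23.3% of all genes did, and 20 had groups that did not overlap, when 40.9% of all genes did not overlap. Without WT replicate 1 these counts were 15 and 22, when 23.8% of all genes had an unadjusted p below 0.05 and 43.9% did not overlap. The log2 fold change without TSC1 replicate 3 was 0.27 for Gria2, -0.24 for Gria1, -0.35 for Grin3a, 0.67 for Grin2a and -0.69 for Gabrd. Without WT replicate 1 the same genes had 0.19, -0.18, -0.21, 0.82 and -0.74, so each kept its sign. Without another mouse, 11 to 16 subunits did not overlap, against 28.6% (WT replicate 2), 29.5% (WT replicate 3), 29.8% (TSC1 replicate 1) and 29.2% (TSC1 replicate 2) of all genes. The subunits called were 0 in these 4 fits, where 0.206%, 0.248%, 0.262% and 0.262% of all genes were called. They were also 0 with RLE scaling (1.54% of all genes), upper-quartile scaling (1.28%), no filter (1.92%), at least 10 counts in every sample (1.63%), effective lengths as offsets (1.46%) and a replicate block (3.94%). With the block, 16 subunits had an unadjusted p below 0.05, when 21.9% of all genes did.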

How the data were processed

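Expression was measured by mRNA-sequencing of telencephalon from 3 WT and 3 TSC1 mice, grouped by genotype label. Per the study's methods, reads were trimmed and mapped by MapSplice2 (mm10), and mRNA abundance was quantified by RSEM 1.2.12. Those methods do not name the transcript set or its release. The deposited expected counts are RSEM's estimates of reads per gene, not normalized. The deposited TPM and FPKM values are the same estimates divided by effective length and scaled per sample. TPM compares genes per length within a sample, and depends on all other genes in it. The library kit keeps no strand.

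Expected counts (14119365 to 17772865 per mouse) were rounded and tested by the quasi-likelihood method of edgeR 4.0.16 (R 4.3.3) after TMM scaling and filterByExpr. Benjamini-Hochberg adjustment was over all 13969 tested genes, with calls at an adjusted p below 0.05. The biological coefficient of variation was 0.113. No 2 samples of a group agreed within sampling noise. The study's own permutation method was not rerun. Alternatives were RLE and upper-quartile scaling, DESeq2 1.42.0, limma 3.58.1 on log2(TPM + 1) and log2(TPM + 0.1), no filter, at least 10 counts in every sample, effective lengths as offsets, a replicate block, and each mouse left out. The scripts were tested on simulated data. Positions are from GENCODE (GRCm38) and promoters from RefSeq (GRCm38.p6), counted from 1.

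The members, classes and lists were chosen with earlier results of these data known. By rule, values in every sample are given for the 8 subunits with the lowest unadjusted p, the most abundant of each class, and the developmental pairs, and for list genes that passed. Gria3, Gria4, Grik1 to Grik4, Grin2c, Grm2, Grm8, Gabra3, Gabra4, Gabrb1, Gabrg1, Gabrg3, Glrb, Gsg1l, Neto1 and Gphn were named after their values were seen. List genes absent from the tables, such as Cnih2 and Slc1a1, were not analysed here. Some members and list genes enter the counts and medians but are not reported here by name.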

Additional observations from a re-analysis of the deposited data

How the results depend on the processing

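For all genes, 212 calls became 640 with DESeq2, 346 with no filter, 551 with the replicate block and 29 to 799 with a mouse left out. The 0 receptor subunits called became 1 with DESeq2 (Grin2d) and 0 to 1 with a mouse left out (Grin2b without WT replicate 1, Grin2d without TSC1 replicate 3), and stayed at 0 under the other 8 alternatives. The 6 calls in the related lists became 12 with DESeq2, 14 with the replicate block and 0 to 12 with a mouse left out, and Slc32a1 and Glul also lost their calls with upper-quartile scaling. The 11 subunits with groups that did not overlap became 10 in TMM-scaled CPM, not all of them the same genes, and 11 to 22 with a mouse left out. In FPKM the log2 ratio of summed levels was -0.135 for kainate subunits, beside -0.0838 in TPM, and 0.0176 for GABA-B subunits, beside 0.0688. The direction of 8 named subunits turned. Grid1 was at 0.0100 and 0.0103 with limma at a pseudocount of 1 and 0.1. With upper-quartile scaling Gabra4 was at -0.0149 and Gabbr1 at -0.0217. With a mouse left out, the ranges were -0.107 to 0.0124 for Grik5, -0.0119 to 0.116 for Grin1, -0.0604 to 0.0452 for Grid1, -0.0168 to 0.0467 for Gabra4, -0.0326 to 0.106 for Gabra5, -0.0537 to 0.191 for Grik4, -0.251 to 0.0599 for Grm8 and -0.0201 to 0.0309 for Gabbr1. Of 675 fold changes of 45 named genes over the alternatives, 618 kept direction and side of the threshold, 12 passed it newly, 28 no longer passed and 17 turned. The cause was not tested, except that a left-out mouse leaves fewer samples and the fit without a filter tests more genes. The replicate numbers share a label only. Deviations of same-numbered mice correlated at 0.27, -0.13 and 0.32, and not every sample correlated best with its own number, so the samples were not taken as paired. With the replicate block, 16 subunits had an unadjusted p below 0.05, beside 10 without it, when the share of all genes was 21.9% beside 18.0%, and 0 were called. Depth limits Grin3b, Grm6 and Gabra6, which entered only the fit without a filter, at adjusted p-values of 0.906, 0.662 and 0.662 (edgeR).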
